A study of Mus musculus with 12 samples.

Results

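Glycolysis and the response to low oxygen were followed across 40 genes in mouse knee cartilage. The genes were chosen by symbol for their known roles, and all 40 were found among the 14712 genes of the deposited table. They comprise 4 glucose and lactate carriers, 11 enzymes and regulators of the upper, energy-consuming steps of glycolysis, 8 enzymes of the lower steps, 2 pyruvate dehydrogenase kinases, 3 mitochondrial proteins of the hypoxia response, 2 prolyl hydroxylases, 8 further hypoxia-responsive genes and the alpha subunits Hif1a and Epas1.

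RNA was sequenced from growth plate and articular cartilage of mice aged 3 months, cut from frozen knee sections by laser capture, with 12 libraries in all and 3 in each group. Mutant libraries came from mice that carried AcanCreERT2/+, an inducible Cre recombinase at the aggrecan locus, together with floxed alleles, and control libraries came from mice with the same floxed alleles and no Cre. The 3 sets of alleles and times were Sox9 fl/fl at day 7, Sox9 fl/fl at day 14, and Sox8 fl/fl Sox9 fl/fl at day 14, and each set gave 1 library per tissue for mutants and for controls. The table's header also names an R26tdT/+ reporter in both the mutants and the controls of the Sox9 fl/fl sets, and what the day counts start from is not stated in the sources used here. Because this Cre is driven from the aggrecan locus, it acts where aggrecan is or was expressed, so cells that do not express it keep their floxed alleles. The labels do not tie captured regions to animals: both tissues of a set may come from the same mouse, which the fits of tissue differences allow for by pairing the tissues and the fits of mutant effects do not.

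Cartilage has no blood vessels, and chondrocytes draw most of their energy from glycolysis. When oxygen is low, HIF-1alpha (Hif1a) and HIF-2alpha (Epas1) escape the prolyl hydroxylases that mark them for degradation, pair with ARNT and switch on genes for glucose uptake, glycolytic enzymes, lactate export, mitochondrial turnover and vessel growth. HIF-1alpha is known to be needed for the survival of growth plate chondrocytes, and SOX9 is the transcription factor that maintains chondrocyte identity. Messenger RNA of the alpha subunits does not measure their protein, which is set mainly by degradation.

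Values are the authors' normalised RPKM (reads counted per transcript length and sequencing depth), so levels are per length. How they were normalised is not stated in the sources used here, which limits comparisons of levels between genes. The lowest listed value is 1, shared by 1299 to 2823 genes in a library, and 1 transcript, AC087541.1, took 24.0% to 45.1% of the summed values. Summed over 14 cartilage matrix markers, the level was 2309 to 7242 in mutant growth plate, 30519 to 46744 in control growth plate, 3570 to 5205 in mutant articular cartilage and 7591 to 11488 in control articular cartilage. The sum of 10 hypertrophic markers was 6350 to 7439 in mutant growth plate and 7944 to 12735 in control growth plate, against 2708 to 3674 in mutant and 3745 to 6110 in control articular cartilage, so the tissue labels matched their markers. Sox9 itself was 236, 148 and 36.0 in mutant growth plate, against 314, 335 and 308 in control growth plate, in the order day 7, day 14 and Sox8 Sox9. In articular cartilage Sox9 was 304, 309 and 282 in mutants and 408, 349 and 213 in controls, so the articular library labelled Sox8 Sox9 mutant had more Sox9 RNA than its control. Its Sox8 was 8.66, against 15.3 in its control. Sox8 was also lower in the articular mutants of the Sox9 fl/fl sets, at 5.16 and 1.63, against 23.2 and 17.8 in their controls. Results resting on the articular library labelled Sox8 Sox9 mutant are also given without it. Reads from outside the floxed segment, where any remain, count toward these values.

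Most of these genes had lower values in growth plate than in articular cartilage, in mutants and in controls. In mutants 20 of the 40 genes were lower in growth plate and 1, Pdk4, was higher (limma with Benjamini-Hochberg adjustment over all genes, adjusted p under 0.05), where 5.91% of all genes were called lower and 4.30% higher. In controls 24 were lower and none was higher, where 8.63% of all genes were called lower and 4.26% higher. The genes' median log2 fold change, growth plate over articular cartilage, was -0.85 in mutants and -0.98 in controls, against medians over all genes of -0.05 in mutants and -0.10 in controls. Under quantile normalisation the 21 calls in mutants became 17 and the 24 in controls 19, with 1512 and 1902 over all genes. Under median ratio scaling they became 16 and 18, with 1479 and 1972 over all genes, against 1501 and 1896 as deposited. In bulk tissue, fewer cells expressing a gene and less RNA per cell cannot be told apart.

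The 3 growth plate libraries all lay below the 3 articular libraries for 23 genes in mutants, where 12.6% of all genes did so, and for 26 genes in controls, where 19.0% did. Both tissue comparisons called 18 of the genes lower: Slc2a1, Slc16a3, Pfkl, Pfkp, Pfkfb3, Aldoa, Tpi1, Gapdh, Pgk1, Eno2, Pkm, Hif1a, Epas1, Egln1, Egln3, Bnip3, Higd1a and Adm. The comparisons use different libraries but share one estimate of the spread. Hk1 and Eno1 were called in mutants alone, and Hk2, Gpi1, Pfkfb4, Ndrg1, Kdm3a and Mxi1 in controls alone, and for none of these 8 did the test of the difference between mutants and controls pass.

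**Figure D1:**
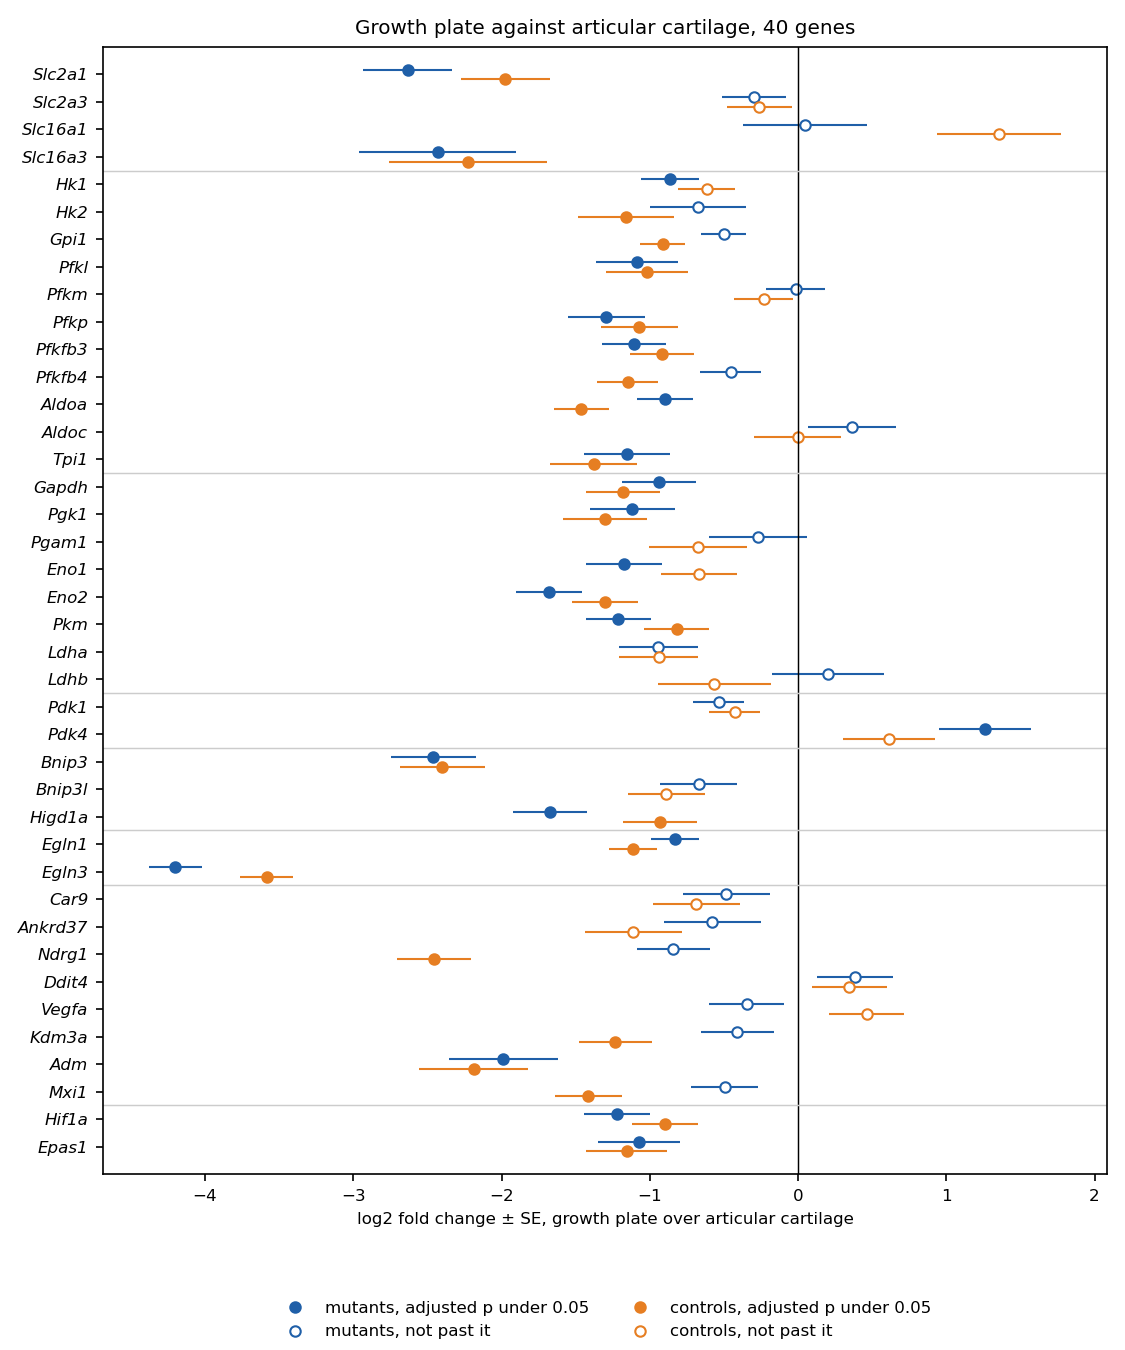
Growth plate over articular cartilage for 40 genes: the x axis is the log2 fold change of normalised RPKM (value plus 1) with its SE, mutants in blue above controls in orange, 3 libraries per group. Filled points have an adjusted p under 0.05 and grey lines part the functional groups; most points lie left of 0, with medians of -0.85 in mutants and -0.98 in controls, and Egln3, listed at the lowest value in growth plate, lies farthest left.

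Fewer genes were called when a library of the compared groups was left out. These fits pair the tissues of a set, so leaving out 1 library also takes its partner out of the comparison. Fits without either library of a pair therefore rest on the same remaining pairs and are not separate checks. In mutants 10 genes were called without either day 7 library of the comparison, 6 without either Sox9 day 14 library, 11 without the growth plate Sox8 Sox9 library and 12 without the articular library labelled Sox8 Sox9 mutant, while in controls 11 were called without either Sox9 day 14 library and 12 without either Sox8 Sox9 library. Calls over all genes fell in these fits too. They went from 1501 to between 796 and 1050 in mutants, and from 1896 to between 1018 and 1063 in controls. The median log2 fold change stayed between -0.93 and -0.79 in mutants and between -1.09 and -0.87 in controls when any 1 of the 12 libraries was left out. Without the articular library labelled Sox8 Sox9 mutant, 10 of the 21 genes kept their call in mutants: Slc2a1, Aldoa, Eno2, Pkm, Hif1a, Egln1, Egln3, Bnip3, Higd1a and Adm. The other 11 kept the sign of their log2 fold change, which lay between -1.98 (Slc16a3) and 0.86 (Pdk4). With each of the 12 libraries left out in turn, the genes called every time were Slc2a1, Eno2, Bnip3, Egln3 and Higd1a in mutants and Slc2a1, Gpi1, Aldoa, Bnip3, Egln1, Egln3, Ndrg1 and Mxi1 in controls. In mutants Tpi1, Gapdh, Pgk1, Slc16a3, Pdk4 and Epas1 were called in 4 of these 12 fits and Pfkl in 0. In controls Pfkp, Epas1 and Higd1a were called in 4, and Hk2, Pfkl and Pkm in 2.

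Because many of these genes are known HIF targets, their promoters were searched for the core of the hypoxia response element, the letters ACGTG or GCGTG on either strand. RefSeq (GRCm38.p6) gave windows of 250 bases before a transcript start for 36 of the 40 genes, and a match stood in 42 of their 54 windows (77.8%), against 54.7% of the windows of all genes in the table and 38.6% of all windows. Counted by gene, 33 of the 36 (91.7%) had a match in at least 1 window, against 60.9% of the genes in the table with a window. The palindrome CACGTG, which holds ACGTG on both strands and counts as 2 matches, stood in 6 member windows (11.1%), against 8.04% of the windows of genes in the table. CG dinucleotides, which such letters need, had a median of 14 in the members' windows and 15 in those of genes in the table. A match of letters is not a binding site.

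The sequences below belong to 5 genes chosen after their values were seen, and to Eno1, the enolase that fell in mutant growth plate. The 5 had the largest log2 decreases in control growth plate among genes with a printable window that held a match. A window without a match was not printed, so each one below holds a match by this rule. The sequences run 5′ to 3′ on the gene's strand up to the start or the first annotated exon, with matches in capitals (CACGC and CACGT are the same letters on the other strand). The windows lie in mm10 at chr12:54203875-54204124 for Egln3 (minus strand), chr7:138909520-138909756 for Bnip3 (minus strand), chr11:120948817-120949052 for Slc16a3 (plus strand), chr7:110627407-110627656 for Adm (plus strand), chr4:119108495-119108710 for Slc2a1 (plus strand) and chr4:150236458-150236707 for Eno1 (plus strand).
Egln3: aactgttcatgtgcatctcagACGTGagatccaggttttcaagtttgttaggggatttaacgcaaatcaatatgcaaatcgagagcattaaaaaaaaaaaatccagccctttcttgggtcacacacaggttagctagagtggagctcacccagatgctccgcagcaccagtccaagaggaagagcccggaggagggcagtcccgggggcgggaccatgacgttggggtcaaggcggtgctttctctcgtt
Bnip3: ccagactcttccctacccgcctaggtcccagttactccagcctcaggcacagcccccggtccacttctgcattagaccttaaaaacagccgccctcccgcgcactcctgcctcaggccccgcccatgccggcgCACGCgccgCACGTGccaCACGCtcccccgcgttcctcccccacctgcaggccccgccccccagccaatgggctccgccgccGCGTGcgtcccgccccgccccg
Slc16a3: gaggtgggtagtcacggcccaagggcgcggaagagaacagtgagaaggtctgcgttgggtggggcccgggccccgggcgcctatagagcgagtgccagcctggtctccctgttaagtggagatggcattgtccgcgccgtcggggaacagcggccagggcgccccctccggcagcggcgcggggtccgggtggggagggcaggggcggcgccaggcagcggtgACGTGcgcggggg
Adm: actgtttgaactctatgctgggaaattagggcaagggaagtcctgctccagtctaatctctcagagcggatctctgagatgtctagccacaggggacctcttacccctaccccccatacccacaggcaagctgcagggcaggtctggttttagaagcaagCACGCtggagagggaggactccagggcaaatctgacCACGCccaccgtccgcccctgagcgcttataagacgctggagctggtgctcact
Slc2a1: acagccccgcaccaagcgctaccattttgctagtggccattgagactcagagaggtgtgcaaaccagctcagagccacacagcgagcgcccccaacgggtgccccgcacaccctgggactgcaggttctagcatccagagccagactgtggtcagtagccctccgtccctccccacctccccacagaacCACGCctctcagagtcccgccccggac
Eno1: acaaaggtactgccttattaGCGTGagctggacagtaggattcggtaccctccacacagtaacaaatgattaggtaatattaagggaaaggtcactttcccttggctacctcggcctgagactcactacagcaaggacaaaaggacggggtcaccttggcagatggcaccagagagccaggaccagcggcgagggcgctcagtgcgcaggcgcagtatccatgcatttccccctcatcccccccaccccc
Bnip3 held 5 matches, with CACGTG beginning 108 bases before the start and single cores at 117, 99 and 35 bases before it, counted from the RefSeq start. Adm held 2, at 90 and 54 bases, and the other printed windows held 1 each, at 229 bases for Egln3, 27 for Slc16a3, 61 for Slc2a1 and 230 for Eno1. The full windows of Slc16a3 and Slc2a1, as counted in the shares above, hold 2 matches each. Those at 14 bases for Slc16a3 and 36 for Slc2a1 are lost or cut in the printed sequences by the bases left off.

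The genes at the centre of the results lie, in the GENCODE annotation of mm10, at chr4:119108711-119137983 (Slc2a1, plus strand), chr12:54178981-54203860 (Egln3, minus strand), chr7:138890836-138909519 (Bnip3, minus strand), chr15:66929318-66969640 (Ndrg1, minus strand), chr9:108991778-109032228 (Pfkfb4, plus strand) and chr4:150236721-150248879 (Eno1, plus strand). All are protein-coding.

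Among the carriers, the glucose transporter GLUT1 (Slc2a1) was lower in growth plate throughout. It stood at 15.9, 10.0 and 4.64 normalised RPKM in mutant growth plate (day 7, day 14 and Sox8 Sox9, the order used throughout), against 64.0, 61.8 and 60.4 in mutant articular cartilage. In controls the values were 30.7, 13.1 and 15.3 in growth plate and 95.6, 85.1 and 51.8 in articular cartilage. All growth plate libraries were below all articular libraries, and the log2 fold change was -2.63 ± 0.30 (SE) in mutants and -1.97 ± 0.30 in controls (limma, Benjamini-Hochberg adjusted p = 0.000953 and 0.00337). Slc2a1 kept its call in both comparisons under every alternative tried.

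The lactate exporter MCT4 (Slc16a3), a HIF target, had the same pattern with more scatter. Its values were 5.30, 4.79 and 1.27 in mutant growth plate and 22.7, 23.1 and 21.7 in mutant articular cartilage. In controls they were 11.1, 1 and 1.31 in growth plate and 16.6, 21.5 and 13.5 in articular cartilage. The control growth plate library of day 7 stood well above the other 2, and the log2 fold change was -2.43 ± 0.53 in mutants and -2.23 ± 0.53 in controls (limma, Benjamini-Hochberg adjusted p = 0.0279 and 0.0337). With each library left out in turn, it was called in 4 of the 12 fits in mutants and 6 of the 12 in controls. The limma adjusted p reached 0.13 in mutants without the growth plate library of the Sox8 Sox9 mutant and 0.164 in controls without the growth plate library of the Sox8 Sox9 control. MCT1 (Slc16a1), which carries lactate in either direction, lay the other way in controls, at 18.7, 7.81 and 5.54 in growth plate and 1.87, 5.43 and 2.66 in articular cartilage. These control groups did not overlap, as for 9.31% of all genes in that direction, but the adjusted p was 0.0752, and in mutants the log2 fold change was 0.05 ± 0.42. GLUT3 (Slc2a3) stayed between 1 and 3.09 in all libraries and was called in no comparison.

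In upper glycolysis, which spends ATP to turn glucose into triose phosphates, 6 of the 11 genes were lower in growth plate in mutants and 8 in controls, and none was higher. Aldolase A (Aldoa), which splits fructose 1,6-bisphosphate, had 69.1, 57.9 and 91.6 in mutant growth plate and 123, 121 and 162 in mutant articular cartilage. In control growth plate it had 63.3, 39.4 and 68.2, against 151, 141 and 173 in control articular cartilage. The tissues did not overlap, with log2 fold changes of -0.90 ± 0.19 in mutants and -1.46 ± 0.19 in controls (limma, Benjamini-Hochberg adjusted p = 0.0169 and 0.00137).

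The other called genes of these steps had log2 fold changes between -1.29 and -0.87 in mutants and between -1.38 and -0.91 in controls. They were hexokinase 1 (Hk1) in mutants alone, hexokinase 2 (Hk2), glucose phosphate isomerase (Gpi1) and Pfkfb4 in controls alone, and the phosphofructokinases Pfkl and Pfkp, the regulator Pfkfb3 and triosephosphate isomerase (Tpi1) in both. The call of Pfkl was lost in mutants whichever library was left out, and in controls without any 1 of 10 libraries. The muscle-type phosphofructokinase Pfkm was called in neither comparison, with a mean of 13.02 ± 3.28 (SD, n = 3) in mutant growth plate and 14.1 ± 7.52 in mutant articular cartilage. In controls it was 13.7 ± 0.580 in growth plate and 16.5 ± 2.95 in articular cartilage, with a log2 fold change of -0.23 ± 0.20. Pfkm made up 49.95% to 58.5% of the summed phosphofructokinase values in mutant growth plate and 39.3% to 56.9% in control growth plate, against 18.1% to 52.5% in mutant and 26.9% to 38.4% in control articular cartilage. The liver type, Pfkl, took 27.7% to 35.2% in mutant and 28.6% to 45.5% in control growth plate, against 28.2% to 51.1% in mutant and 37.6% to 56.6% in control articular cartilage. Aldolase C (Aldoc), the brain form, was between 1 and 4.44 everywhere and took at most 6.68% of the aldolase sum.

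**Figure D2:**
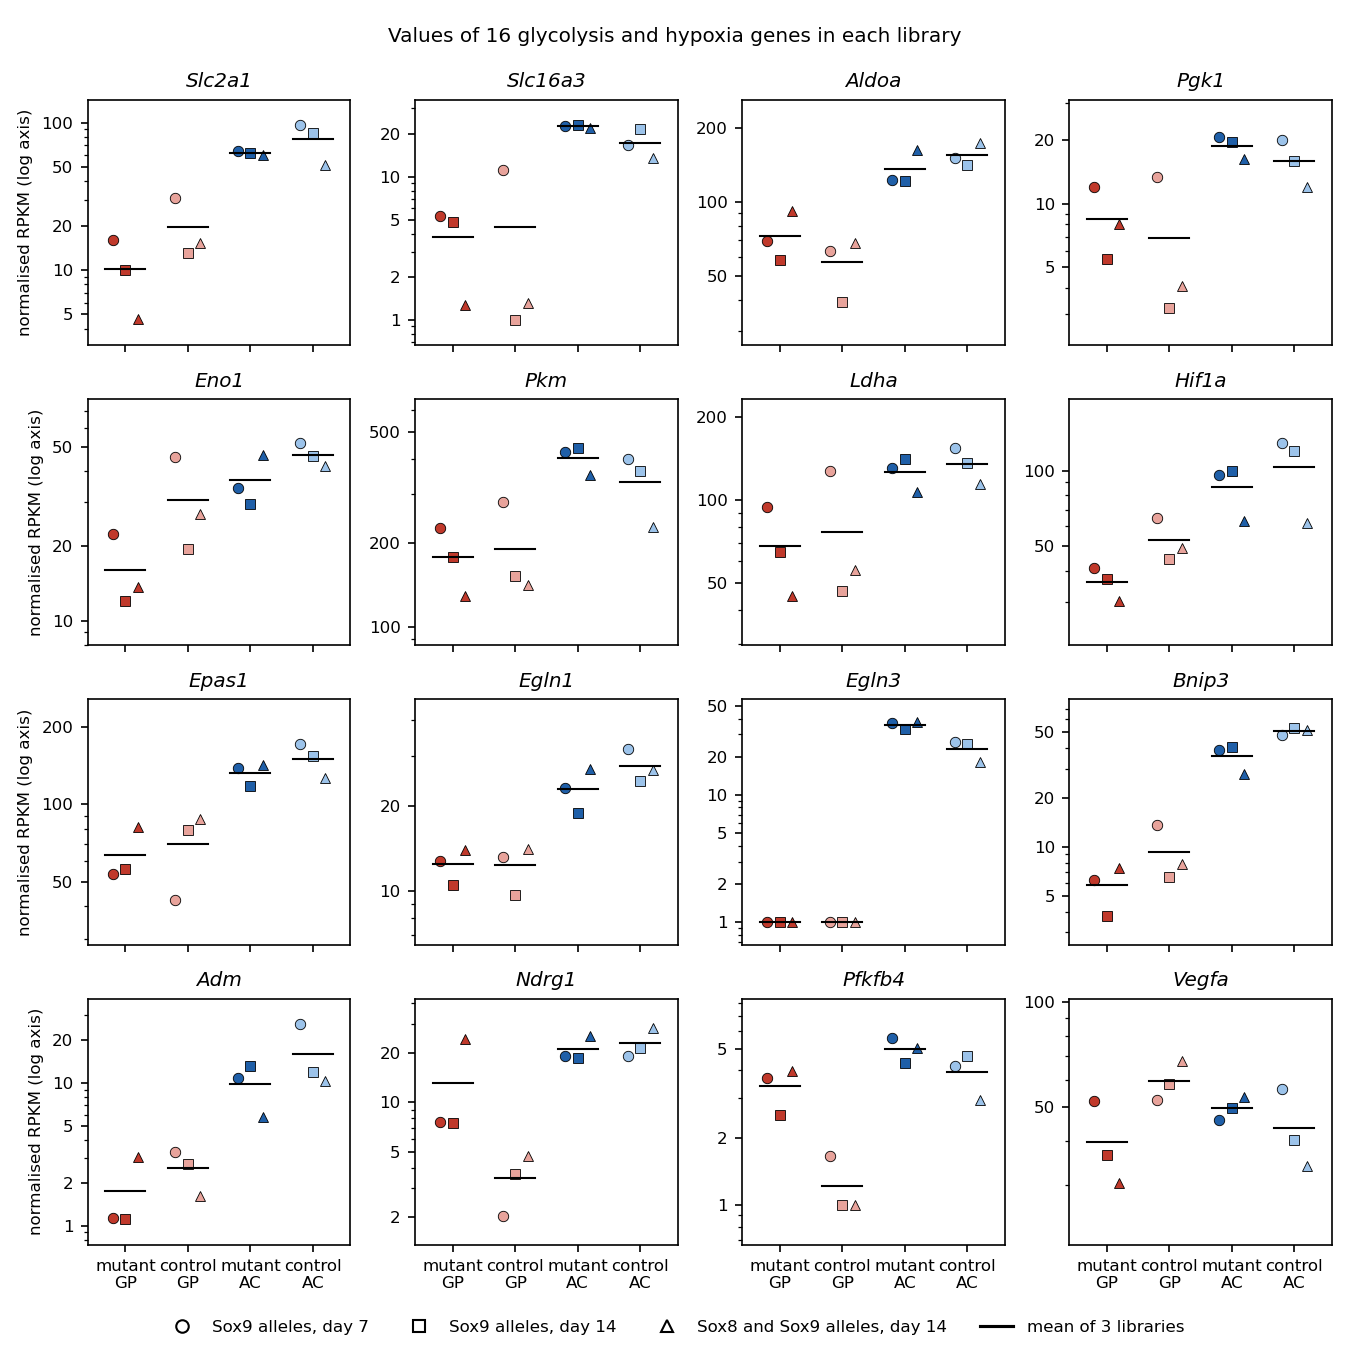
Normalised RPKM (log y axes) of 16 of the genes in each of 12 libraries, with mutant growth plate (GP), control GP, mutant articular cartilage (AC) and control AC from left to right. Symbols give the set, lines the mean of 3 libraries; for Slc2a1, Egln3, Bnip3 and Aldoa every GP point is below every AC point, and for Ndrg1 and Pfkfb4 the mutant GP points are above the control GP points.

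In lower glycolysis, where ATP is regained, 5 of the 8 genes were lower in growth plate in mutants and 4 in controls. Pyruvate kinase (Pkm), which makes pyruvate, had the highest mean level of the 40 genes in the control libraries of either tissue. It stood at 225, 178 and 129 in mutant growth plate and at 423, 438 and 352 in mutant articular cartilage, which did not overlap. In controls it was 279.6, 151 and 142 in growth plate and 402, 363 and 227 in articular cartilage, where the day 7 growth plate library exceeded the Sox8 Sox9 articular library. The log2 fold change was -1.21 ± 0.22 in mutants and -0.82 ± 0.22 in controls (limma, Benjamini-Hochberg adjusted p = 0.00908 and 0.043).

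Neuronal enolase (Eno2) was near the lowest value in growth plate, at 1.43, 1 and 1 in mutants and 1, 1 and 1.04 in controls. In articular cartilage it reached 6.29, 4.58 and 6.82 in mutants and 4.14, 2.83 and 5.19 in controls. Both comparisons passed the test (limma, Benjamini-Hochberg adjusted p = 0.00186 in mutants and 0.00598 in controls). The main enolase, Eno1, provided 84.5% to 97.9% of the enolase sum in all libraries. Gapdh and phosphoglycerate kinase (Pgk1), the steps after triose phosphate, were lower in growth plate in both comparisons, with log2 fold changes of -0.94 ± 0.25 and -1.12 ± 0.29 in mutants and -1.18 ± 0.25 and -1.30 ± 0.29 in controls.

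Lactate dehydrogenase A (Ldha), which turns pyruvate into lactate, missed the threshold in both. It had 94.4, 65.1 and 44.7 in mutant growth plate and 131, 142 and 107 in mutant articular cartilage. In controls it had 128, 46.8 and 55.8 in growth plate and 155, 136 and 115 in articular cartilage. The log2 fold change was -0.94 ± 0.26 in mutants and in controls (limma, Benjamini-Hochberg adjusted p = 0.0583 and 0.0501). Ldhb, the form favoured in oxidative tissue, and phosphoglycerate mutase (Pgam1) were called in neither comparison. Ldhb took 36.4% of the lactate dehydrogenase sum in the growth plate library of the Sox8 Sox9 mutant, and 3.51% to 13.4% in the other 11 libraries. Processed pseudogenes resemble Gapdh, Pgk1, Ldha, Eno1, Tpi1, Aldoa and Pgam1, and how shared reads were handled is not stated in those sources, so their absolute levels are uncertain. Of these copies, Pgam1-ps2 has its own row.

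Pyruvate dehydrogenase kinases keep pyruvate out of the mitochondria. Pdk1, a HIF target, was called in neither comparison, with means of 6.06 ± 1.76 in mutant growth plate and 9.17 ± 2.10 in mutant articular cartilage (SD, n = 3), and of 7.24 ± 2.55 in control growth plate and 10.2 ± 3.79 in control articular cartilage. Pdk4, which responds to fasting and fatty acids, was the 1 gene called higher in growth plate and the 1 whose mutant growth plate libraries all lay above the articular ones, as for 8.67% of all genes, at 3.98, 4.65 and 11.9 in mutant growth plate and 2.47, 1.46 and 2.09 in mutant articular cartilage. Pdk4's log2 fold change was 1.26 ± 0.31 (limma, Benjamini-Hochberg adjusted p = 0.035). It was 0.86, and not called, without the articular library labelled Sox8 Sox9 mutant, which also takes out the paired growth plate library at 11.9. In controls it was 0.62 ± 0.31 and not called.

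Both alpha subunits were called lower in growth plate, in calls that single libraries could end. Hif1a had 40.9, 36.9 and 30.3 in mutant growth plate and 96.1, 100.2 and 63.3 in mutant articular cartilage. In controls it had 65.1, 44.7 and 49.4 in growth plate and 129, 119.8 and 61.8 in articular cartilage, so the control tissues overlapped by 1 library each. The log2 fold change was -1.22 ± 0.22 in mutants and -0.90 ± 0.22 in controls (limma, Benjamini-Hochberg adjusted p = 0.00966 and 0.0328). With each library left out in turn, Hif1a was called in 8 of the 12 fits in mutants and 5 of the 12 in controls, with a limma adjusted p up to 0.0735 in mutants, without the day 7 growth plate library, and up to 0.211 in controls, without the day 14 growth plate library of the Sox9 set. Epas1, known for driving catabolic genes in osteoarthritic cartilage, had 53.4, 56.1 and 81.6 in mutant growth plate and 139, 118 and 143 in mutant articular cartilage. In controls it had 42.6, 79.1 and 87.6 in growth plate and 171, 155 and 127 in articular cartilage. These tissues did not overlap in mutants or in controls, with log2 fold changes of -1.07 ± 0.27 in mutants and -1.16 ± 0.27 in controls (limma, Benjamini-Hochberg adjusted p = 0.0414 and 0.0266). Its call was kept in 4 of the 12 fits with a library left out in mutants and in 4 of the 12 in controls, and the limma adjusted p reached 0.229 and 0.138 without a day 7 library of the compared tissues. Epas1 took 56.6% to 72.9% of the sum of both subunits in mutant growth plate and 39.6% to 64.0% in control growth plate, against 54.0% to 69.3% in mutant and 56.4% to 67.2% in control articular cartilage, so the shares overlapped between the tissues.

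The prolyl hydroxylases PHD3 and PHD2, which inactivate the alpha subunits, were lower in growth plate in mutants and in controls. PHD3 (Egln3), itself induced by HIF, was listed at the lowest value, 1, in all 6 growth plate libraries. In articular cartilage it had 36.7, 33.1 and 37.9 in mutants and 26.2, 25.3 and 18.3 in controls. No fold is given against a group listed at the lowest value; both comparisons passed the test (limma, Benjamini-Hochberg adjusted p = 9.05e-06 in mutants and 1.51e-05 in controls) and did so under every alternative. PHD2 (Egln1), the main oxygen sensor, was present in both tissues, at 12.8, 10.4 and 13.98 in mutant growth plate and 23.0, 18.8 and 26.8 in mutant articular cartilage. In controls it was 13.1, 9.67 and 14.04 in growth plate and 31.7, 24.4 and 26.7 in articular cartilage. The tissues did not overlap, and the log2 fold change was -0.83 ± 0.16 in mutants and -1.11 ± 0.16 in controls (limma, Benjamini-Hochberg adjusted p = 0.0125 and 0.00258).

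Of the mitochondrial proteins, BNIP3 (Bnip3), a receptor for the removal of mitochondria, had 6.23, 3.78 and 7.42 in mutant growth plate and 39.2, 40.8 and 27.8 in mutant articular cartilage. In controls it had 13.5, 6.50 and 7.89 in growth plate and 48.5, 53.2 and 52.0 in articular cartilage. The highest growth plate value was below the lowest articular value, and the log2 fold change was -2.46 ± 0.29 in mutants and -2.40 ± 0.29 in controls (limma, Benjamini-Hochberg adjusted p = 0.00103 and 0.000989). Its relative Bnip3l (NIX) had log2 fold changes of -0.67 ± 0.26 in mutants and -0.89 ± 0.26 in controls and was not called. Higd1a, a respiratory chain factor, was lower in growth plate, with log2 fold changes of -1.67 ± 0.25 in mutants and -0.93 ± 0.25 in controls.

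The remaining hypoxia genes divided. Adrenomedullin (Adm), a vasoactive peptide, had 1.13, 1.11 and 3.05 in mutant growth plate and 10.8, 13.2 and 5.78 in mutant articular cartilage. In controls it had 3.31, 2.74 and 1.61 in growth plate and 25.9, 12.02 and 10.4 in articular cartilage. The tissues did not overlap, with log2 fold changes of -1.99 ± 0.37 in mutants and -2.19 ± 0.37 in controls (limma, Benjamini-Hochberg adjusted p = 0.0101 and 0.00563). The histone demethylase Kdm3a and the MAX partner Mxi1 were lower in control growth plate, with log2 fold changes of -1.23 ± 0.25 and -1.42 ± 0.22, and were not called in mutants.

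Vascular endothelial growth factor (Vegfa), the classical HIF target that draws vessels to the growth plate, was called in no comparison. It had 52.1, 36.7 and 30.5 in mutant growth plate and 45.9, 49.7 and 53.4 in mutant articular cartilage. In controls it had 52.6, 58.2 and 67.9 in growth plate and 56.3, 40.4 and 34.1 in articular cartilage. The tissues overlapped in both, with log2 fold changes of -0.35 ± 0.25 in mutants and 0.46 ± 0.25 in controls. Ddit4, an inhibitor of mTORC1 signalling, lay between 4.87 and 15.6 in all libraries and was not called either. Carbonic anhydrase 9 (Car9) was listed at 1 in all 6 growth plate libraries and in 1 articular library, with an articular maximum of 3.72, and Ankrd37 did not exceed 5.09.

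By mean level in control growth plate, Pkm, Ldha, Epas1, Vegfa, Aldoa and Hif1a led, and in control articular cartilage Pkm, Aldoa, Epas1, Ldha, Hif1a and Slc2a1 led. In the control growth plate the ranges of Ldha (46.8 to 128), Epas1 (42.6 to 87.6), Vegfa (52.6 to 67.9), Aldoa (39.4 to 68.2) and Hif1a (44.7 to 65.1) overlapped, so their order is not beyond the spread. In control articular cartilage Aldoa (141 to 173), Epas1 (127 to 171) and Ldha (115 to 155) overlapped likewise. The handling of reads shared with pseudogenes is not stated, so the places of Ldha and Aldoa in both orders are uncertain.

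Summed by group, the carriers held 12.4 to 31.97 in mutant and 22.9 to 61.5 in control growth plate, against 90.0 to 95.0 in mutant and 69.2 to 115 in control articular cartilage. Upper glycolysis held 151 to 189 in mutant and 115 to 193 in control growth plate, against 285 to 379.8 in mutant and 328 to 370.4 in control articular cartilage. Lower glycolysis held 237 to 394 in mutant and 239 to 507 in control growth plate, against 568 to 676 in mutant and 443 to 689 in control articular cartilage, so the tissues overlapped in controls and not in mutants. The 21 genes of pyruvate entry and the tricarboxylic acid cycle summed to 240.2 to 464 in mutant and 249 to 259 in control growth plate, against 237 to 261 in mutant and 244 to 275 in control articular cartilage. Of these 21 genes 1 was higher (Pdk3) and 1 lower (Pcx) in mutant growth plate, and none was higher and 1 lower (Pdp1) in control growth plate. Over all genes, 4.30% were called higher and 5.91% lower in mutants, and 4.26% higher and 8.63% lower in controls. The median log2 fold change of the 21 was 0.24 in mutants and -0.07 in controls, against -0.05 in mutants and -0.10 in controls over all genes.

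**Figure D3:**
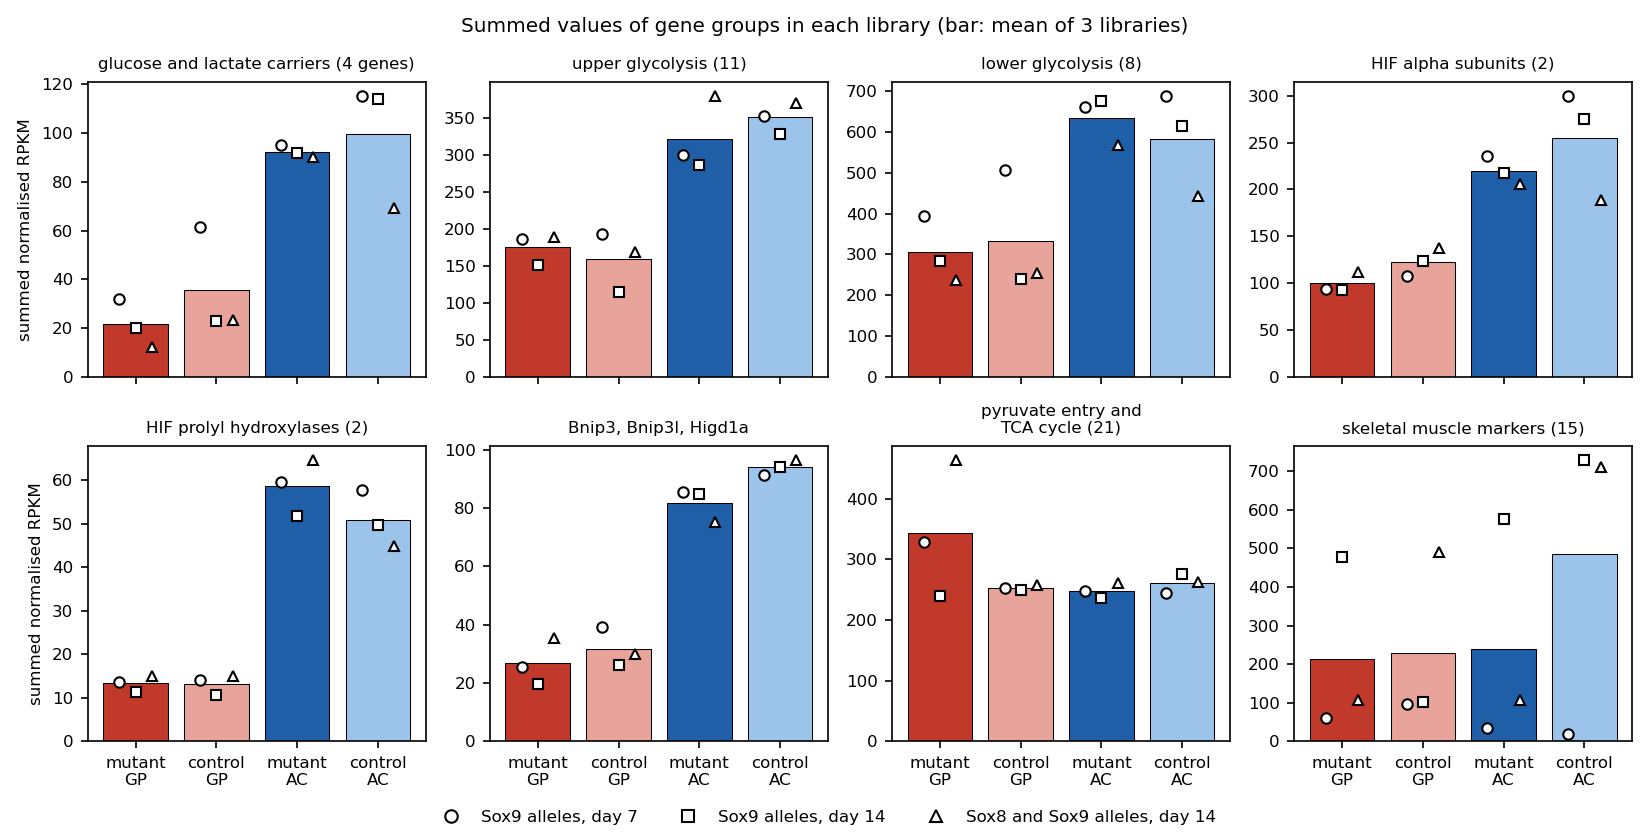
Summed normalised RPKM of 8 gene groups in each library, with mutant growth plate (GP), control GP, mutant articular cartilage (AC) and control AC from left to right; bars are means of 3 libraries and symbols the sets. Carriers, upper glycolysis, alpha subunits, hydroxylases and the trio Bnip3, Bnip3l and Higd1a are lower in GP, the 21 genes of pyruvate entry and the tricarboxylic acid cycle stand at 237 to 464 everywhere, and skeletal muscle markers scatter from 19.2 to 728 in control AC.

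Other genes of the pathways were taken from lists, which were chosen with earlier results of these data known. The genes named from each list are its 2 largest called changes per direction. Of 54 further HIF targets, 5 were higher and 15 lower in mutant growth plate than in mutant articular cartilage, and 8 were higher and 21 lower in control growth plate than in control articular cartilage. Over all genes, 4.30% were called higher and 5.91% lower in mutants, and 4.26% higher and 8.63% lower in controls. The median log2 fold change was -0.38 in mutants and -0.66 in controls, against -0.05 and -0.10 over all genes. The largest decreases in both comparisons were those of Dusp1, a phosphatase of MAP kinases, and Maff, a small basic leucine zipper factor, at -3.53 ± 0.26 and -2.40 ± 0.28 in mutants and -2.61 ± 0.26 and -3.20 ± 0.28 in controls. Against this trend, carbonic anhydrase 12 (Car12) had means of 11.5 ± 1.93 in mutant and 49.6 ± 20.6 in control growth plate, and was listed at 1 in all 6 articular libraries. The transferrin receptor (Tfrc) was higher in growth plate by 2.08 ± 0.29 in mutants and 1.73 ± 0.29 in controls on the log2 scale.

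The counts of the next lists stand beside shares over all genes of 4.30% higher and 5.91% lower in mutants, and 4.26% higher and 8.63% lower in controls. Among 18 measured further glycolysis genes, none was higher and 1 lower in mutant growth plate (Gpd2, the mitochondrial glycerol phosphate dehydrogenase), and 1 was higher and 2 were lower in control growth plate. The higher one was the fructose transporter Slc2a5, with 12.5 ± 3.44 in control growth plate and 1.52 ± 0.459 in control articular cartilage (SD, n = 3), and the lower ones were phosphoglucomutase 2 (Pgm2) and Gpd2, with log2 fold changes of -1.10 ± 0.21 and -0.96 ± 0.21. Of 17 measured HIF regulators, none was called in mutants and 1 was lower in controls, the p300 binding antagonist Cited2. Of 18 genes of the pentose phosphate, glycogen and hexosamine routes, 4 were lower in mutant growth plate, led by the hexosamine enzymes Gfpt2 (log2 fold change -3.37 ± 0.32) and Uap1 (-1.68 ± 0.19), and 2 in control growth plate, muscle glycogen phosphorylase Pygm (-1.77 ± 0.41) and Uap1 (-1.08 ± 0.19).

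Markers of some other cells differed between the tissues as well, while no skeletal muscle marker was called. Summed over 15 genes, skeletal muscle markers were 59.6 to 476 in mutant and 97.5 to 489.9 in control growth plate, against 35.1 to 576 in mutant and 19.2 to 728 in control articular cartilage. These sums overlapped, and none of the 15 was called in either tissue comparison. Counted by gene, 14 of the 15 were lower in control growth plate, with a median log2 fold change of -1.58. In mutants 8 of the 15 were lower in growth plate and 7 higher, with a median of -0.004. Neutrophil markers (13 genes) were 719 to 2263 in mutant and 524 to 693 in control growth plate, against 259 to 1141 in mutant and 118 to 1208 in control articular cartilage. Counted by gene, 12 of the 13 were lower in control growth plate than in control articular cartilage, with a median log2 fold change of -2.27. Of the 13, 5 were called lower and 1 higher in controls, where 8.63% and 4.26% of all genes were. In mutants 1 was called lower and 1 higher, with a median of 0.20, where 5.91% and 4.30% of all genes were called. Osteoblast and osteocyte markers (11 genes) were 17288 to 23218 in mutant and 3150.1 to 9307 in control growth plate, against 2346 to 4157 in mutant and 1655 to 3696 in control articular cartilage, and osteoclast markers (7 genes) were also higher in growth plate, from 1079 upward, against at most 272 in articular cartilage. In the day 7 controls 13 of the 15 muscle markers were at the lowest value in growth plate and in articular cartilage. The part of bone, blood or muscle cells in the differences between the tissues was not tested.

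Few of these genes differed between mutant and control growth plate. Of the 40, 2 rose in mutant growth plate (Ndrg1 and Pfkfb4) and 1 fell (Eno1), where 7.92% of all genes were called higher and 2.82% lower, or 10.7% in either direction. The median log2 fold change, mutant over control, was 0.03, against 0.20 over all genes. The share of higher among all called genes depended on scaling, with 1165 higher and 415 lower as deposited, 726 and 741 under median ratio scaling, and 606 and 679 under quantile normalisation. So did the balance among the 40 genes, of which 21 lay above and 17 below 0 as deposited, and 15 above and 25 below under either rescaling.

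N-myc downstream regulated 1 (Ndrg1), a stress and hypoxia induced protein, had 7.58, 7.44 and 24.1 in mutant growth plate and 2.04, 3.67 and 4.72 in control growth plate. The mutant libraries were all above the controls, as for 19.0% of all genes, and the Sox8 Sox9 mutant was highest. Its log2 fold change was 1.495 ± 0.25 (limma, Benjamini-Hochberg adjusted p = 0.00681), and it was called whichever single library was left out, with 1.14 and an adjusted p of 0.0161 without the Sox8 Sox9 mutant library. In the Sox9 sets alone it was 1.17 with a limma adjusted p of 0.0672. In articular cartilage Ndrg1 had 19.1, 18.7 and 25.5 in mutants and 19.2, 21.6 and 28.4 in controls, a log2 fold change of -0.12 ± 0.25. The growth plate effect exceeded the articular one by 1.61 ± 0.35, which did not pass the test of that difference (limma, Benjamini-Hochberg adjusted p = 0.136). Growth plate over articular cartilage, Ndrg1 had a log2 fold change of -0.84 ± 0.25 in mutants, which was not called, and of -2.45 ± 0.25 in controls, called with an adjusted p of 0.000391.

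Pfkfb4, a bifunctional enzyme that sets fructose 2,6-bisphosphate, had 3.71, 2.52 and 3.97 in mutant growth plate and 1.67, 1 and 1 in control growth plate. The groups did not overlap, but 2 control libraries were at the lowest listed value. On the scale of value plus 1, the log2 fold change was 0.98 ± 0.21 (limma, Benjamini-Hochberg adjusted p = 0.0187), and the call was lost without any 1 of 4 growth plate libraries (adjusted p-values of 0.0588 to 0.073) and under quantile normalisation (adjusted p of 0.0616). In articular cartilage it had 5.57, 4.33 and 5.06 in mutants and 4.19, 4.66 and 2.96 in controls, and was not called.

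Eno1 had 22.3, 11.98 and 13.7 in mutant growth plate and 45.6, 19.4 and 26.9 in control growth plate. Each mutant was below its own control, while the day 7 mutant exceeded the day 14 control. The log2 fold change was -0.86 ± 0.24 (limma, Benjamini-Hochberg adjusted p = 0.0484), and this call was kept without just 3 of the 12 libraries and lost without any single growth plate library, with an adjusted p up to 0.194. Of its 3 promoter windows, the printed one holds 1 match and the other 2 hold 2 matches each.

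Slc2a1 came close to the threshold. It was lower in the mutant growth plate library of each set and had a log2 fold change of -0.93 ± 0.28 with a limma adjusted p of 0.0592. It was called under both rescalings, with an adjusted p of 0.0447 for median ratio scaling and 0.0437 for quantile normalisation. Mutant growth plate libraries lay all above controls for 4 of the 40 genes (Slc2a3, Pfkfb4, Ndrg1 and Mxi1), where 19.0% of all genes did so, and all below for 3 (Hk1, Vegfa and Hif1a), where 4.96% did. Hif1a had a log2 fold change of -0.54 ± 0.21 and Vegfa of -0.60 ± 0.23, and both were called lower under median ratio scaling alone among the alternatives, with limma adjusted p-values of 0.0448 and 0.0468.

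**Figure D4:**
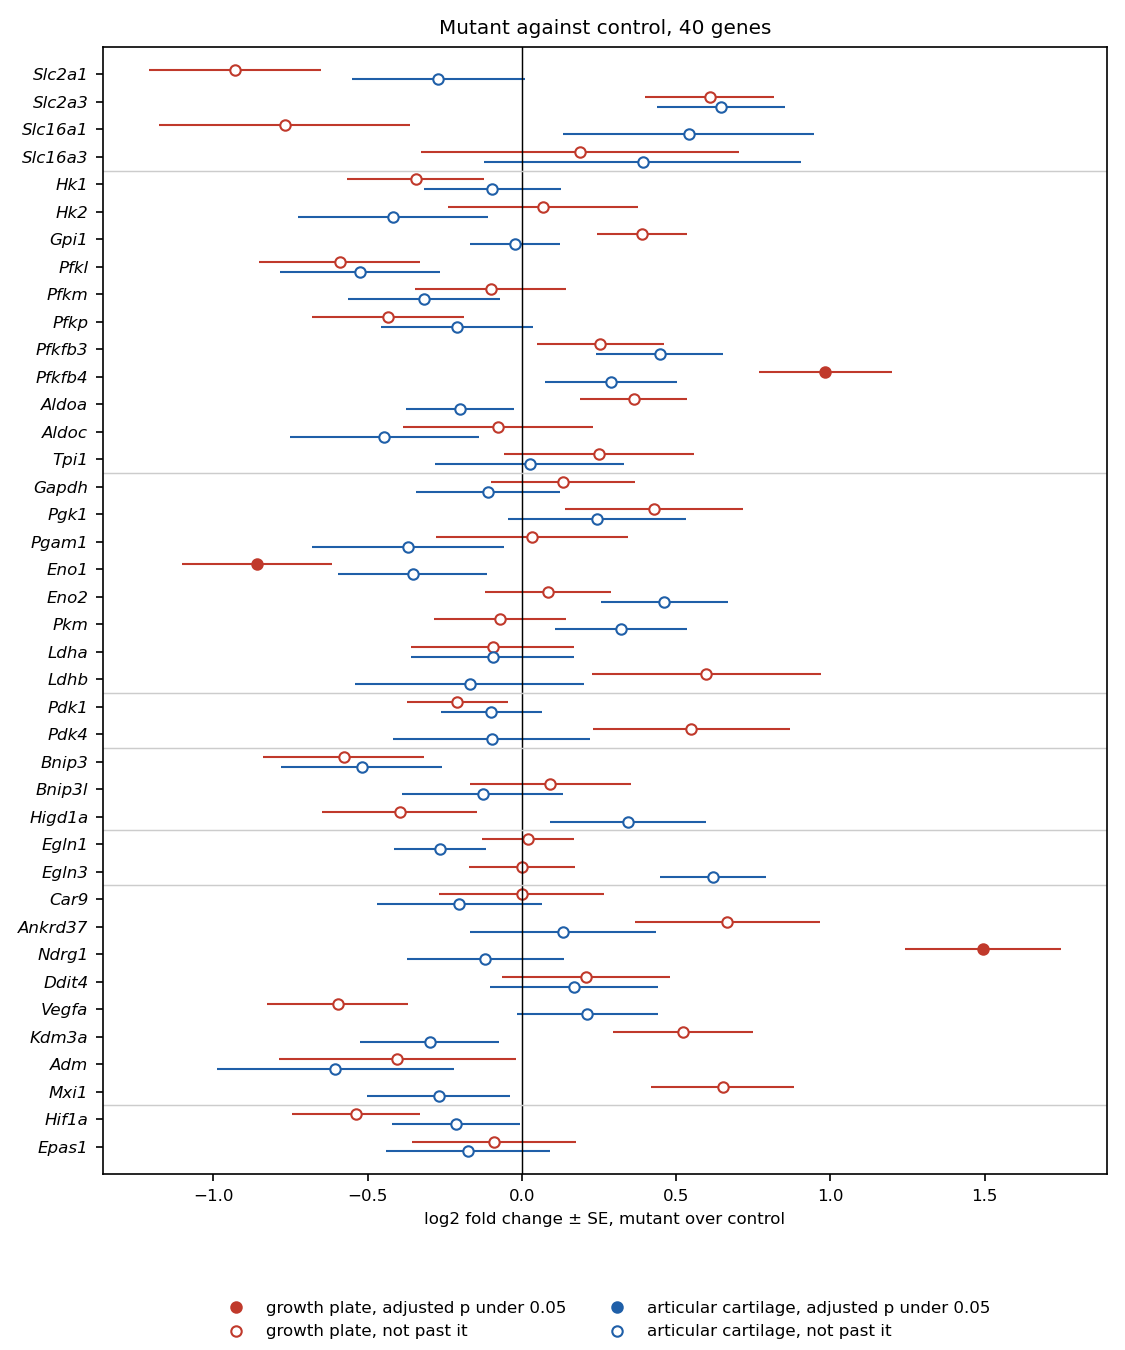
Mutant over control for 40 genes: the x axis is the log2 fold change of normalised RPKM (value plus 1) with its SE, growth plate in red above articular cartilage in blue, 3 libraries per group. Filled points have an adjusted p under 0.05; these are Ndrg1 and Pfkfb4, right of 0, and Eno1, left of 0, all in growth plate.

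The growth plate mutants differed from their controls in markers of several cell types. Of 14 cartilage matrix markers 13 fell, and of 10 hypertrophic markers 6 fell, where 2.82% of all genes did. In contrast, 8 of 13 neutrophil, 6 of 11 osteoblast and osteocyte and 5 of 10 macrophage markers rose, where 7.92% of all genes did. So did 2 of 9 endothelial, 1 of 8 erythroid and 1 of 6 adipocyte markers. None of the 7 osteoclast and none of the 15 skeletal muscle markers was called. The Sox8 Sox9 mutant library, highest for Ndrg1, Pfkfb4, Ldhb and Pdk4 among the growth plate libraries, also had several of their highest marker sums. These were neutrophil (2263, against 524 in its control), osteoclast (3425, against 1308), macrophage (689, against 152) and endothelial markers (101, against 56.9). The sums of osteoblast and osteocyte, erythroid, adipocyte and skeletal muscle markers were highest in other growth plate libraries. Mmp9 stood in both the neutrophil and the osteoclast list. The part of these cells in the changes of Ndrg1, Pfkfb4 and Eno1 was not tested.

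In the lists around the pathways, 4 of 54 further HIF targets rose and 5 fell in mutant growth plate, where 7.92% of all genes rose and 2.82% fell. The metallothioneins Mt2 and Mt1, which bind metals, rose by 1.72 ± 0.38 and 1.49 ± 0.31 on the log2 scale, and the secreted stanniocalcin Stc2 and the lysyl oxidase Loxl2 changed by -2.92 ± 0.44 and -1.97 ± 0.21. Slc2a5 fell to 1.38 ± 0.468 in mutant growth plate, against 12.5 ± 3.44 in control growth plate (SD, n = 3), with a log2 fold change of -2.50 ± 0.25 (adjusted p by limma and Benjamini-Hochberg = 0.000748). Siah2, a ligase that degrades prolyl hydroxylases, changed by -0.88 ± 0.18, and the hexosamine enzyme Gfpt2 and liver glycogen phosphorylase Pygl by -1.95 ± 0.31 and -0.96 ± 0.24. None of the 21 genes of pyruvate entry and the tricarboxylic acid cycle was called, with a median log2 fold change of 0.47, against 0.20 over all genes.

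In articular cartilage none of the 40 genes was called between mutants and controls, where 0.353% of all genes were (limma with Benjamini-Hochberg adjustment). An unadjusted limma p under 0.05 was reached by 3 of the 40 and by 1805 of all 14712 genes. The count was 0 under every alternative, including without the articular library labelled Sox8 Sox9 mutant, and the median log2 fold change was -0.11, against 0.13 over all genes. The mutant libraries lay all above the controls for Slc2a3, Pfkfb3, Slc16a3 and Egln3, as for 11.4% of all genes, and all below for Bnip3, as for 3.09%. Egln3 had a log2 fold change of 0.62 ± 0.17 with an adjusted p of 0.188, and 0.53 without that library. Among the genes of the pathway lists, Stc2 alone was called, at 2.20 ± 1.08 in mutants and 25.9 ± 14.5 in controls (SD, n = 3).

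The mutant effect in growth plate minus that in articular cartilage passed the test for none of the 40 genes, where 0.184% of all genes passed, 0.0476% as higher and 0.136% as lower (limma with Benjamini-Hochberg adjustment). An unadjusted limma p under 0.05 was reached by 5 of the 40 and by 1580 of all 14712 genes. Between sets the effects can only be described, since each rests on 1 pair. The median log2 ratio of the 40 genes, mutant over control in growth plate, was -0.02 at day 7, 0.09 at day 14 and -0.05 for Sox8 Sox9, against medians over all genes of 0.30, 0 and 0.20. In articular cartilage it was -0.20 at day 7, -0.20 at day 14 and 0.05 for Sox8 Sox9, against 0.16, 0.06 and 0.07 over all genes. The growth plate was below articular cartilage in every set, with medians of -0.66, -0.90 and -0.86 in mutants and -0.67, -1.25 and -0.91 in controls, against 0, -0.14 and 0 in mutants and -0.08, -0.07 and -0.01 in controls over all genes, and 32, 38 and 33 genes below 0 in mutants and 37, 35 and 35 in controls.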

How the data were processed

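The deposited table gives 14712 genes in 12 libraries as normalised RPKM, per the file headers; the sources used here do not say how the authors normalised these RPKM values. Per the labels' protocols, libraries were made with the SMARTer Stranded Total RNA-seq v2 Pico kit from laser-captured tissue. The submitters' processing notes name mm10; aligner, counter and read depth are not stated there, so no counting error can be stated, and the lowest listed value is 1. A fold change is on the log2(value + 1) scale, which understates changes of low genes. The limma package 3.58.1 (R 4.3.3, statmod 1.5.0) was fitted to all genes and libraries with robust empirical Bayes moderation and a mean trend, and p-values were adjusted over all 14712 genes by Benjamini-Hochberg, with 0.05 as the threshold. Mutant effects were fitted with the 3 sets of alleles and day as a block, and tissue differences with 6 blocks of set and Cre. Pairing comes from the labels' sets. Nothing in the labels says that the 3 sets are repeats of one experiment: a group joins 3 sets, and its spread holds differences of day and alleles. All 40 genes were tested, and 32 were above the lowest value in every library. The genes and lists were chosen with earlier results of these data known. Every gene is named by role, those called get a value in each library, and each list gives its 2 largest called changes per direction. Promoter windows came from RefSeq (GRCm38.p6), with up to 40 bases lying in exons left off, and gene positions from GENCODE. Scripts were tested on simulated data. Alternatives were the pseudocount, filters on low values, 2 rescalings, the block, subsets of libraries, each library left out in turn, and moderation.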

Additional observations from a re-analysis of the deposited data

How the results depend on the processing

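No gene called in any comparison changed direction under an alternative. The count in articular mutants against controls and that of the difference between the tissues' mutant effects were 0 under all. Over all genes the alternatives called 2 to 101 for articular mutants and 0 to 40 for the difference. For mutant against control growth plate, the 3 calls became 6 under median ratio scaling, 0 with the compared groups alone and 0 with the Sox9 sets alone. They ranged from 1 to 3 with each library left out in turn, and the 1 came without the mutant day 7 library or the control Sox8 Sox9 library. Over all genes, the 1580 calls became 1467, 0 and 274 in those fits, and ranged from 658 to 1927 with each library left out. For growth plate against articular cartilage in mutants, the 21 calls became 9 with the compared groups alone and 7 with the Sox9 sets alone, and ranged from 6 to 20 with each library left out. Over all genes the 1501 calls became 781 and 759, and ranged from 796 to 1362. In controls the 24 became 9 and 13, and ranged from 11 to 27. Over all genes the 1896 calls in controls became 866 and 1058, and ranged from 894 to 2068. The fits of subsets and those with a library left out hold fewer libraries, and a comparison of tissues then loses the whole pair of the library left out. Without the replicate block of paired sets the counts were 2 for growth plate mutants, 0 for articular mutants, 16 for tissues in mutants, 21 for tissues in controls and 0 for the difference of effects, and over all genes 945 instead of 1580 were called in growth plate mutants and 29 instead of 52 in articular mutants. For tissues, all-gene calls without that block were 1269 instead of 1501 in mutants and 1524 instead of 1896 in controls. The genes called under every alternative run were Slc2a1, Eno2, Bnip3 and Egln3 in mutants and Slc2a1, Gpi1, Aldoa, Bnip3, Egln1, Egln3 and Ndrg1 in controls, and none for growth plate mutants. For growth plate mutants, the fit of the compared groups alone called 0 of all 14712 genes. Depth is unknown, and genes at the lowest listed value give no fold.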
